A study of Mus musculus with 3 samples.

Results

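The Bcl2 family holds the proteins that decide whether a mitochondrion releases cytochrome c and the cell dies. The 10 genes described here were taken by name: Bcl2, Bcl2l1 (Bcl-xL) and Mcl1, which protect the cell, Bax and Bak1, which open the outer mitochondrial membrane, and Bid, Bad, Bcl2l11 (Bim), Bbc3 (Puma) and Pmaip1 (Noxa), which carry only the BH3 motif. Every non-control probe whose gene name on the array was one of these 10 was used, which gave 19 of 41174 probes and 10 of 27745 gene names. All 10 genes had at least 1 probe, and 17 of the 19 probes were well above background in both genotypes on all 3 arrays.

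Each array compared a pool of kidney rudiments from C57BL/6 Fgfrl1-/- embryos with a pool from C57BL/6 wt littermates at E12.5, when the first nephron precursors form. Fgfrl1 is a receptor of the fibroblast growth factor receptor family without a kinase domain, and both of its alleles were inactivated in all cells of the mutant. There were 3 pools of each genotype, with 6 to 9 rudiments in a pool, and the embryos behind each pool are not traced. Fgfrl1-/- RNA was labelled with Cy3 and wildtype RNA with Cy5 on every array, so with 0 dye swaps an effect of the dye and an effect of the genotype cannot be told apart.

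In background, the protective members bind and hold back both Bax and Bak1 and the BH3-only proteins. When BH3-only proteins exceed the protective ones, Bax and Bak1 form pores, and the released cytochrome c joins Apaf1 to activate caspases. In the developing kidney, Bcl2 is known for keeping the uninduced metanephric mesenchyme alive, and Bim is known as its main opponent there. Much of this control acts on the proteins and is not read by an mRNA array.

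The targeted gene was lower in the pool labelled Fgfrl1-/- on all 3 arrays. The log2 ratio of Fgfrl1-/- over wildtype for Fgfrl1 was -1.21, -1.51 and -1.83, with a mean of -1.52 ± 0.31 (SD, n = 3) and an adjusted p of 0.0332 (limma, Benjamini-Hochberg over 41174 probes); whether the probe lies in the deleted stretch is not given in the sources used here. Arrays 2 and 3 shared a slide, and array 1 was on another slide, read with another version of the scanner software. Across probes, Pearson's r between the log2 ratios was 0.71 for arrays 2 and 3, but 0.11 for arrays 1 and 2 and 0.22 for arrays 1 and 3. The Fgfrl1-/- channel of array 1 had 80.2% of its probes well above background, and those of arrays 2 and 3 had 57.1% and 63.9%. Because array 1 stands apart, member values are given for each array, and with and without array 1 where this changes a call. Markers of the cap mesenchyme, the nephron progenitors of the kidney, were well above background in both genotypes on all arrays in 10 of 10 genes. So were 22826 of all 41174 probes and 10 of 10 macrophage markers, so this does not identify the tissue.

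The probes printed here show what was measured. They are 60 bases long, are written 5′ to 3′ as on the array, and lie in protein-coding sequence, so each reads the message of the protein itself. The first reads the Bax message, the next ones read the Bcl2 and Bcl-xL messages, and the last reads into the BH3 motif of Bim, where the capitals mark the codons of the glycine and aspartate that BH3 motifs share.
Bax (A_51_P254541): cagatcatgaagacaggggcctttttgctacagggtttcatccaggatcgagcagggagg
Bcl2 (A_51_P380013): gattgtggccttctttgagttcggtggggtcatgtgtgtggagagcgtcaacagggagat
Bcl2l1 (A_52_P510877): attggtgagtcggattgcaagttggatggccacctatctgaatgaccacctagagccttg
Bcl2l11 (A_51_P484880): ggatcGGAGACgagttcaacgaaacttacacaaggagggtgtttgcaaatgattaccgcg
In the array's own annotation, on mouse build mm8, the Bax probe lies on the minus strand at chr7:45334141-45334296. The Bcl2 probe lies on the minus strand at chr1:108539940-108539999 and the Bcl2l1 probe on the minus strand at chr2:152520890-152520949. The Bcl2l11 probe lies on the plus strand at chr2:127838598-127849693. The Bax probe spans 156 bases of genome and the Bcl2l11 probe 11096, so both cross an intron and read spliced message.

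No member passed the test. Of the 19 probes, 0 had an adjusted p below 0.05 (limma), against 283 of all 41174 probes (0.687%, of which 0.398% lower and 0.289% higher) and 1.19% of the probes well above background in both genotypes on all arrays. At an unadjusted p below 0.05 there were 9 of 19 (47.4%), of which 6 had lower and 3 had higher values in Fgfrl1-/- kidneys, and they belonged to 7 of the 10 genes. The same share was 15.9% among all probes (8.2% lower and 7.69% higher) and 26.1% among the probes that were well above background in both genotypes on all arrays. A fit of the separate channels also called 0 member probes, and so did a fit with 1 probe per gene, in which 0.98% of all genes were called. The 95% confidence interval of every member probe lay within a 2-fold difference in either direction, with bounds from -0.73 to 0.81 on the log2 scale. These intervals hold for ratios formed with an added offset of 50, which draws those of dim probes toward 0. They do not bound the changes without that offset or under another normalisation. Median centring without loess put the mean of the brightest Bcl2 probe at -0.76, below the lowest bound. For most lowered genes that the paper tested by quantitative PCR at E12.5, the difference was larger than on the arrays. No member was among the genes tested. The largest mean difference of a member over the 3 arrays was 0.46 (Bbc3), while the smallest of any called probe on the array was 0.53. In absolute value, the median log2 fold change was 0.19 over the 19 member probes, 0.089 over all probes and 0.14 over probes well above background in both genotypes on all arrays.

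**Figure D1:**
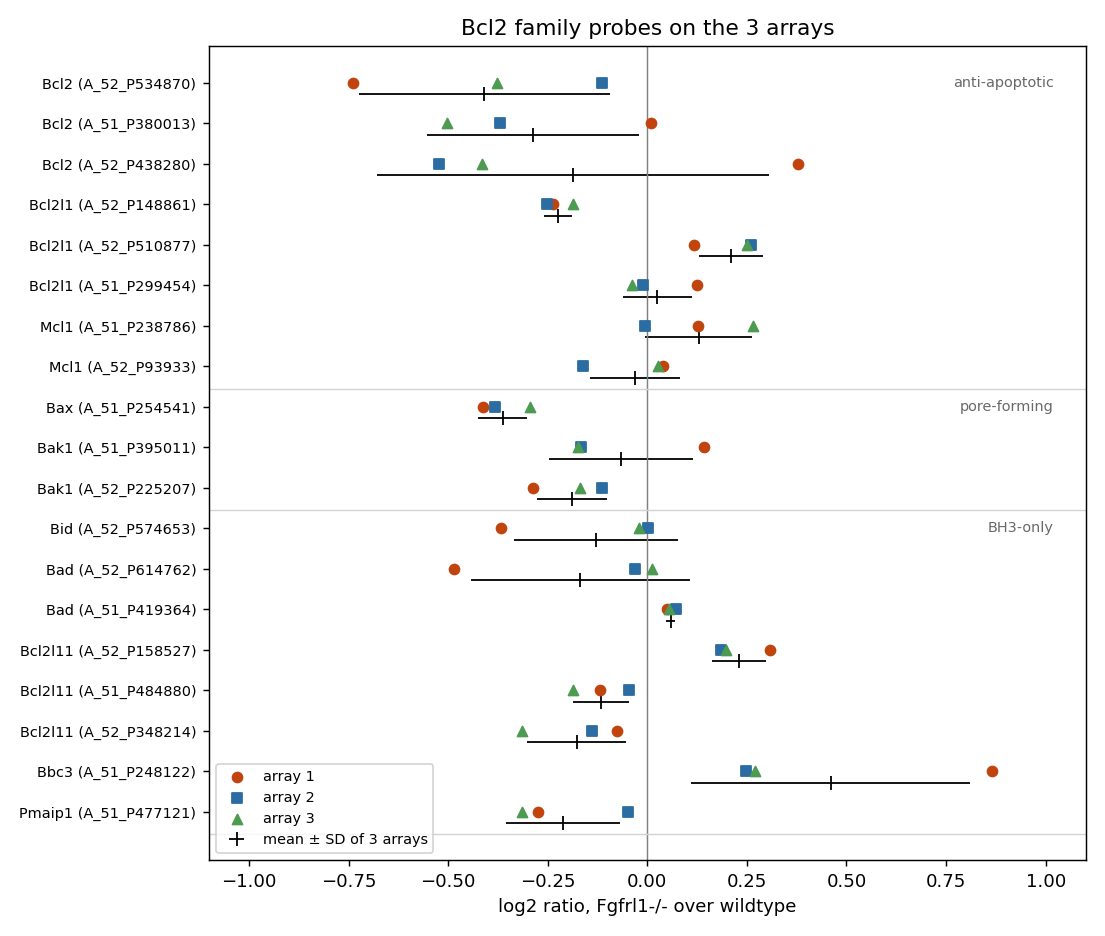
The log2 ratio of Fgfrl1-/- over wildtype is plotted on the x axis for each of the 19 probes of the 10 genes (rows), with 1 symbol per array and a black bar for the mean ± SD of 3 arrays. Bax lies left of 0 and Bbc3 right of 0 on every array, and the probes of Bcl2, Bcl2l1 and Bcl2l11 do not share 1 position.

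Among the protective members, Bcl2 had a mean below 0 on all of its probes. Its brightest probe (A_52_P534870, on the minus strand at chr1:108365763-108365822) gave log2 levels of 11.41, 11.83 and 11.68 in the Fgfrl1-/- pools of arrays 1, 2 and 3, and of 12.15, 11.95 and 12.06 in the wildtype pools. A level is the normalised intensity of 1 channel on the log2 scale. Every wildtype pool was above every Fgfrl1-/- pool, and array 1 was the most apart. The mean log2 ratio was -0.41 ± 0.31 (SD, n = 3; limma adjusted p = 0.214), with a 95% interval of -0.73 to -0.088, and it was -0.76 under median centring without loess. The same sequence was spotted 10 times on each array. After 1 outlier spot was left out on each array, all 9 remaining spots were below 0 on each, at -0.74 ± 0.14, -0.11 ± 0.033 and -0.38 ± 0.059 (mean ± SD of spots).

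The other probes of Bcl2 did not repeat this order of arrays. The coding probe shown above had log2 ratios of 0.0097, -0.37 and -0.50, with a mean of -0.29 ± 0.27 (SD, n = 3; limma adjusted p = 0.313). The third probe (A_52_P438280), designed on a separate cDNA, had 0.38, -0.52 and -0.42, with a mean of -0.19 ± 0.49 (SD, n = 3; limma adjusted p = 0.714). On array 1 the 3 probes thus ran from -0.74 to 0.38, while on arrays 2 and 3 all were below 0. The probes lie up to 174 kb apart along the gene. Without array 1, the coding probe averaged -0.44 (limma adjusted p = 0.00171) and the third probe -0.47 (limma adjusted p = 0.000984), and the brightest probe averaged -0.24 (limma adjusted p = 0.0559). On those 2 arrays, 18.6% of all probes were called.

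Bcl2l1, whose main product Bcl-xL protects many cell types, gave opposite values on different probes. Its brightest probe (A_52_P148861, on the minus strand at chr2:152472336-152472395) had log2 levels of 8.65, 8.41 and 8.63 in the Fgfrl1-/- pools and 8.88, 8.66 and 8.82 in the wildtype pools. The groups did not overlap, and the ratios of -0.24, -0.25 and -0.19 were close to each other (mean -0.22 ± 0.034, SD, n = 3; limma adjusted p = 0.202). Of the replicate spots, 8 of 10, 9 of 9 and 9 of 10 were below 0 on arrays 1, 2 and 3. The coding probe shown above had log2 levels of 6.91, 6.96 and 7.01 in the Fgfrl1-/- pools and 6.80, 6.70 and 6.76 in the wildtype pools. Here all Fgfrl1-/- pools were the higher ones, with ratios of 0.12, 0.26 and 0.25 (mean 0.21 ± 0.080, SD, n = 3; limma adjusted p = 0.253). The third probe (A_51_P299454) averaged 0.025 ± 0.087 (SD, n = 3; limma adjusted p = 0.927). Its ratios on arrays 1, 2 and 3 were 0.12, -0.011 and -0.039. The first and second probes are 0.43 apart on the log2 scale and lie on either side of 0 on all 3 arrays, and the mean of all 3 probes of the gene was 0.0033. Without array 1, the coding probe averaged 0.26 (limma adjusted p = 0.0278).

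Mcl1, a short-lived protective member, lay near 0 on both of its probes. The brighter probe (A_51_P238786) had log2 levels of 12.499, 12.97 and 12.97 in the Fgfrl1-/- pools and 12.37, 12.97 and 12.70 in the wildtype pools. The groups overlapped, and the mean log2 ratio was 0.13 ± 0.13 (SD, n = 3; limma adjusted p = 0.536), which turned to -0.27 when arrays were centred on their median with no loess step. The other probe (A_52_P93933) averaged -0.031 ± 0.11 (SD, n = 3; limma adjusted p = 0.908). Its ratios on arrays 1, 2 and 3 were 0.040, -0.16 and 0.028.

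**Figure D2:**
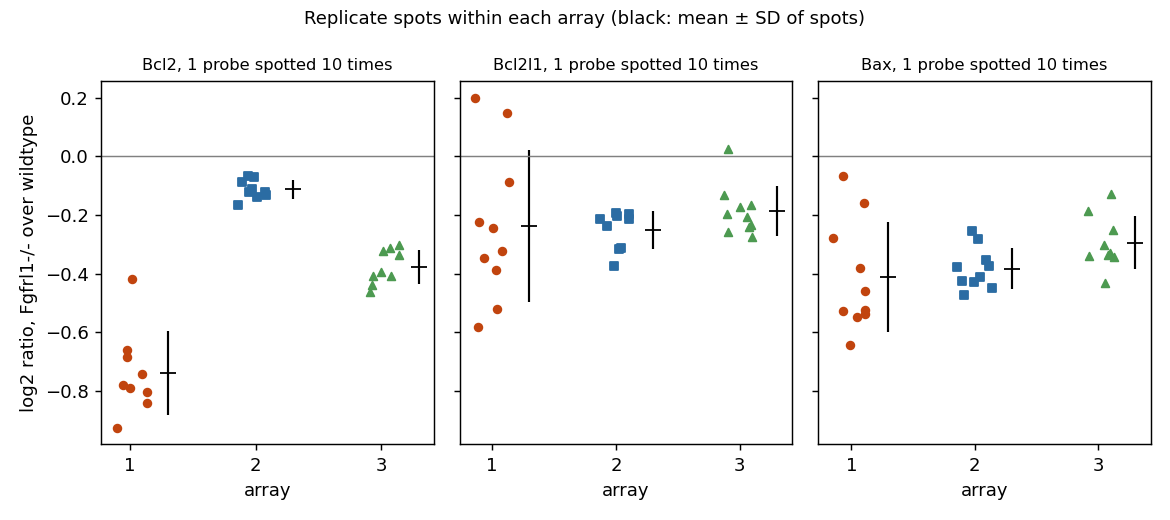
Each point is 1 spot of a probe that was printed 10 times on every array, for Bcl2, Bcl2l1 and Bax, with the array on the x axis and the log2 ratio of Fgfrl1-/- over wildtype on the y axis (black: mean ± SD of spots). All Bcl2 and Bax spots lie below 0; the Bcl2 spots of array 2 lie apart from those of arrays 1 and 3, whose ranges touch (-0.93 to -0.42 and -0.46 to -0.30), and the Bax spots of the 3 arrays overlap.

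Of the pore-forming members, Bax had a lower level in the Fgfrl1-/- pool of every array, with the smallest adjusted p of all members. Its single probe gave log2 levels of 10.74, 10.56 and 10.66 in the Fgfrl1-/- pools and 11.16, 10.95 and 10.95 in the wildtype pools. All wildtype pools were above all Fgfrl1-/- pools, and the pool of array 1 was the highest of its genotype in each. The log2 ratios were -0.41, -0.38 and -0.29, with a mean of -0.36 ± 0.062 (SD, n = 3; limma adjusted p = 0.0954) and a 95% interval of -0.54 to -0.19, a level 1.29-fold lower. This sequence too was spotted 10 times, and all spots used (10, 10 and 9) were below 0 on the 3 arrays. The spots had means of -0.41 ± 0.19, -0.38 ± 0.070 and -0.29 ± 0.092 (SD of spots). Without array 1 the mean was -0.34 (limma adjusted p = 0.00695), beside 18.6% of all probes called. Over the 16 other ways of processing, the value for Bax ran from -0.65 (median centring without loess) to -0.34.

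Bak1, which acts beside Bax, did not differ clearly. Its brighter probe (A_51_P395011) had log2 levels of 10.08, 9.89 and 9.77 in the Fgfrl1-/- pools and 9.94, 10.05 and 9.95 in the wildtype pools. The groups overlapped, since the Fgfrl1-/- pool was higher on array 1 and lower on arrays 2 and 3 (mean log2 ratio -0.066 ± 0.18, SD, n = 3; limma adjusted p = 0.811). The dimmer probe (A_52_P225207) was below 0 on all arrays, at -0.29, -0.11 and -0.17 (mean -0.19 ± 0.088, SD, n = 3; limma adjusted p = 0.303).

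Among the BH3-only members, Bbc3 had a higher level in the Fgfrl1-/- pool of every array, and over the 3 arrays its mean difference was the largest of any member. Puma, its product, is a target of p53 and binds all protective members. The log2 levels were 11.57, 11.95 and 11.89 in the Fgfrl1-/- pools and 10.71, 11.70 and 11.62 in the wildtype pools. The groups overlapped, because the Fgfrl1-/- pool of array 1 was below the wildtype pools of arrays 2 and 3. The log2 ratios were 0.86, 0.25 and 0.27, so array 1 was far above the others, and the wildtype pool of that array was the lowest of the 6. The mean was 0.46 ± 0.35 (SD, n = 3; limma adjusted p = 0.200), with a 95% interval of 0.11 to 0.81, a 1.38-fold higher level. That rank rested on array 1 and on the processing: without array 1 the mean was 0.26 (limma adjusted p = 0.0262), below the size for Bax and for 2 Bcl2 probes. It was 0.28 with the scanner software's ratios and 0.13 under median centring, where Bcl2 was at -0.41 and -0.76. Of all probes, 1224 (2.97%) had a larger absolute mean difference than Bbc3 over the 3 arrays.

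Bcl2l11, whose product Bim also binds all protective members, had 1 probe above and 2 probes below 0. The brightest probe (A_52_P158527, on the plus strand at chr2:127853756-127853815) gave log2 levels of 11.56, 11.56 and 11.56 in the Fgfrl1-/- pools and 11.25, 11.38 and 11.37 in the wildtype pools. The groups did not overlap, with ratios of 0.31, 0.18 and 0.20 (mean 0.23 ± 0.068, SD, n = 3; limma adjusted p = 0.209), but the mean turned to -0.096 under median centring without loess. The probe at the BH3 motif shown above was below 0 on all arrays, at -0.12, -0.045 and -0.19 (mean -0.12 ± 0.070, SD, n = 3; limma adjusted p = 0.520). The third probe (A_52_P348214) averaged -0.18 ± 0.12 (SD, n = 3; limma adjusted p = 0.374), and it was well above background on only 1 of 3 arrays in Fgfrl1-/- and 2 of 3 in wildtype. Its ratios on arrays 1, 2 and 3 were -0.076, -0.14 and -0.32. The mean over the 3 probes was -0.021.

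Bid, Bad and Pmaip1 had smaller values. Bid, which links death receptors to mitochondria, had log2 ratios of -0.37, 0.0019 and -0.021 (mean -0.13 ± 0.21, SD, n = 3; limma adjusted p = 0.618), so that its mean came from array 1. Bad, which is held inactive by growth factor signalling through Akt, had ratios of -0.49, -0.031 and 0.011 on its brighter probe (A_52_P614762), with a mean of -0.17 ± 0.28 (SD, n = 3; limma adjusted p = 0.576). That probe was designed on a cDNA that the array places on the strand opposite to Bad, so its signal cannot be assigned to the Bad message. The other Bad probe (A_51_P419364), on the strand of the gene, lay at 0.050, 0.071 and 0.054 (mean 0.058 ± 0.011, SD, n = 3; limma adjusted p = 0.761) and was dim, with 2 of 3 wildtype pools well above background. Of the 18 member probes whose gene was in the RefSeq table (GRCm38.p6), 17 had the annotated strand of the gene, against 99.6% of 15782 probes for RefSeq messages on the whole array. Pmaip1, another p53 target, which mainly opposes Mcl1, had log2 levels of 7.27, 7.42 and 7.28 in the Fgfrl1-/- pools and 7.55, 7.47 and 7.60 in the wildtype pools. These did not overlap, and the mean log2 ratio was -0.21 ± 0.14 (SD, n = 3; limma adjusted p = 0.309).

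**Figure D3:**
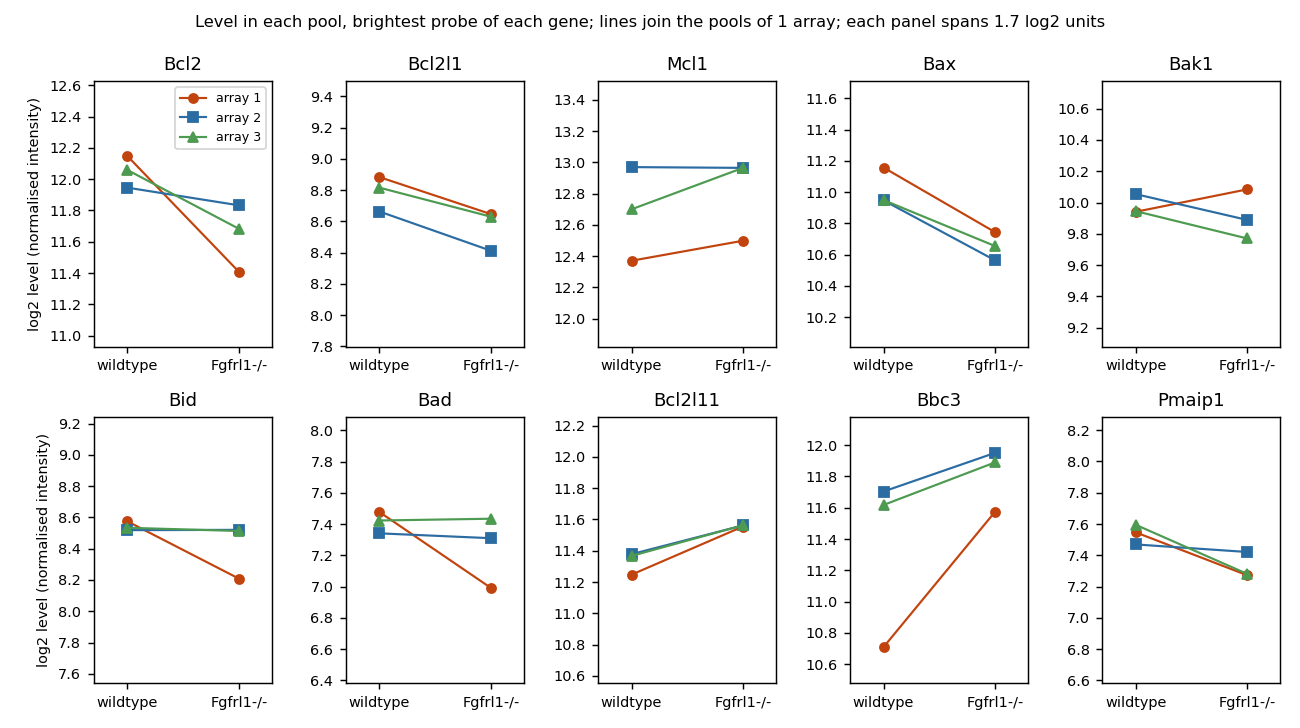
The log2 level (normalised intensity) of the brightest probe of each of the 10 genes is plotted on the y axis for the wildtype and the Fgfrl1-/- pool of each array (x axis), joined by a line, with every panel spanning 1.7 log2 units. Bax and Bcl2l1 slope down and Bcl2l11 slopes up on all 3 arrays, and the wildtype pool of array 1 stands low for Bbc3. The Bad panel shows the probe on the strand opposite to Bad.

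Pool by pool, the levels of the genotypes did not overlap for 7 of the 19 probes, against 13.9% of all probes. These 7 were 1 probe each of Bcl2, Bax and Pmaip1, 2 probes of Bcl2l1 and 2 probes of Bcl2l11. The 2 probes of Bcl2l1 pointed in opposite directions, and so did the 2 of Bcl2l11. The log2 ratio had the same sign on all arrays for 11 of 19 member probes, against 38.3% of all probes. Among probes well above background in both genotypes on all arrays, the count was 9 of 17 for members and 10571 of 22820 in all. For levels that did not overlap, no such share was taken.

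The comparison of protective with death-promoting members gave no common direction across arrays. The 8 protective probes had median log2 ratios of 0.079, -0.14 and -0.11 on arrays 1, 2 and 3, and the 11 death-promoting probes had -0.12, -0.045 and -0.17. The difference between these medians, death-promoting minus protective, was -0.20, 0.092 and -0.056, with a mean of -0.054 ± 0.14 (SD, n = 3 arrays), less than the spread between arrays. Its sign turned under 4 of the 16 other ways of processing, to 0.16 under median centring without loess, 0.011 with the scanner software's ratios, 0.070 with 1 probe per gene and 0.018 without array 1. Within the death-promoting members, the 3 pore-forming probes had medians of -0.29, -0.17 and -0.17 and the 8 BH3-only probes had -0.097, -0.015 and -0.0046. The medians over all probes were 0.0020, -0.0039 and -0.0017. These medians are descriptions without a test, and probes of 1 gene are not independent. The death-promoting and BH3-only probes include the Bad probe on the opposite strand. It also stands for Bad wherever 1 probe per gene was used.

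Pairs of single members were also set side by side on their brightest probes. Bbc3 had the highest and Bcl2 the lowest mean log2 ratio of these probes, so a large difference between them followed from the choice. Bbc3 minus Bcl2 was 1.60, 0.36 and 0.65 in log2 ratio on arrays 1, 2 and 3, and Bcl2l11 minus Bcl2 was 1.05, 0.30 and 0.57. On these probes both differences were above 0 on every array and were largest on array 1. That depended on the probe. On array 1 the other Bcl2 probes were at 0.0097 and 0.38, above the other Bcl2l11 probes at -0.12 and -0.076. Bax minus Bcl2 was 0.33, -0.27 and 0.082, with a change of sign on array 2. Bbc3 minus Bax, both death-promoting, was 1.28, 0.63 and 0.57. Hence the death-promoting members did not share 1 direction, and these pairs were picked after the values of the members were known.

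**Figure D4:**
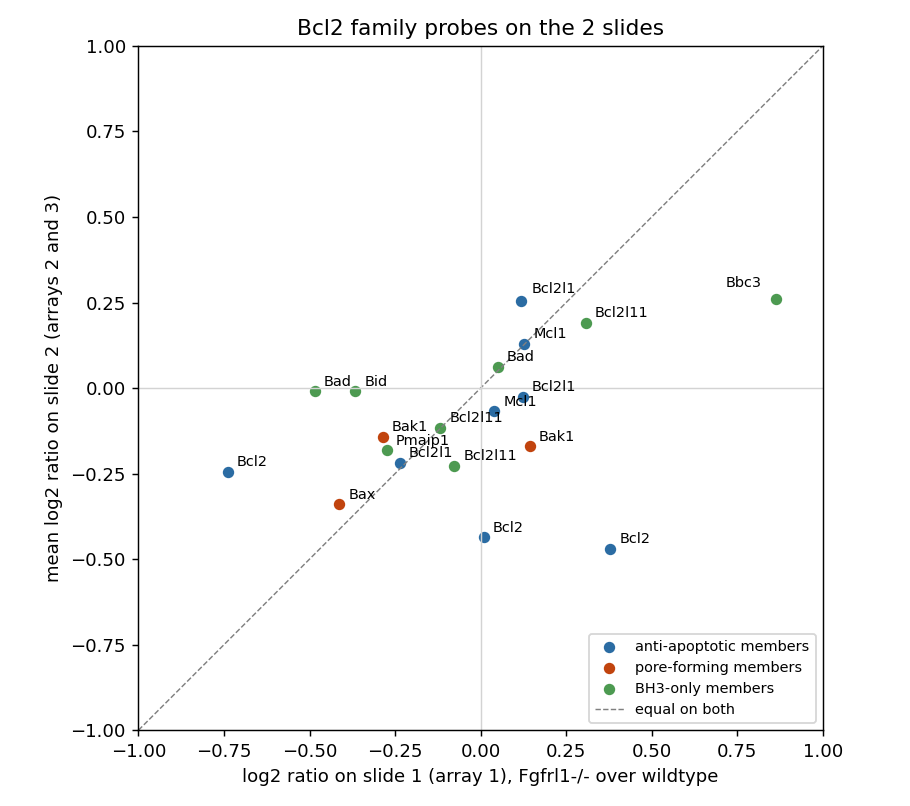
Each point is 1 of the 19 probes, with its log2 ratio of Fgfrl1-/- over wildtype on array 1 (slide 1) on the x axis and its mean over arrays 2 and 3 (slide 2) on the y axis, coloured by role; the dashed line marks equal values. Bax, Pmaip1 and 1 probe each of Bcl2l1, Mcl1, Bcl2l11 and Bad are among those near the line. The 3 Bcl2 probes are spread along the x axis from -0.74 to 0.38.

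The wider death pathway was represented by 73 genes in 5 lists, of which 70 had a probe (brightest probe per gene). Of these, 0 were called by limma, against 0.687% of all probes, and 15 had an unadjusted p below 0.05, 4 of them lower and 11 higher. At that threshold the shares were 15.9% of all probes and 26.1% of those well above background in both genotypes on all arrays, and 61 of the 70 genes were among the latter. The 13 other Bcl2 family genes had a median log2 fold change of 0.071, the 18 apoptosome and caspase genes -0.00097, the 17 genes of p53 and its targets 0.0100, the 8 death receptor genes 0.030, and the 14 upstream regulators of the members 0.13. The median over all probes was 0.0037. Bcl2a1b and Bcl2a1c, which are near-identical copies, are uncertain, since probes may not separate them.

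The pathway genes with the lowest values were Cycs, cytochrome c itself, and E2f1, a cell cycle factor that also acts on BH3-only genes. Cycs had log2 ratios of -0.75, -0.35 and -0.32 (mean -0.48 ± 0.24, SD, n = 3; limma adjusted p = 0.120). E2f1 had -0.60, -0.13 and -0.41 (mean -0.38 ± 0.24, SD, n = 3; limma adjusted p = 0.177). The highest values were those of Trp53inp1, a p53 target, and Jun, a factor that acts on Bim and Puma genes in neurons. Trp53inp1 had 0.47, 0.67 and 0.51 (mean 0.55 ± 0.11, SD, n = 3; limma adjusted p = 0.0594), and Jun had 0.51, 0.51 and 0.43 (mean 0.48 ± 0.045, SD, n = 3; limma adjusted p = 0.0620). Without array 1, 19 of the 70 pathway genes were called, beside 18.6% of all probes, and the 4 named here were among them. Processing moved these values: median centring gave -0.96 for Cycs, 0.23 for Trp53inp1 and 0.21 for Jun, and the mean over the 2 probes of each gene was 0.25 for Trp53inp1 and -0.20 for E2f1.

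**Figure D5:**
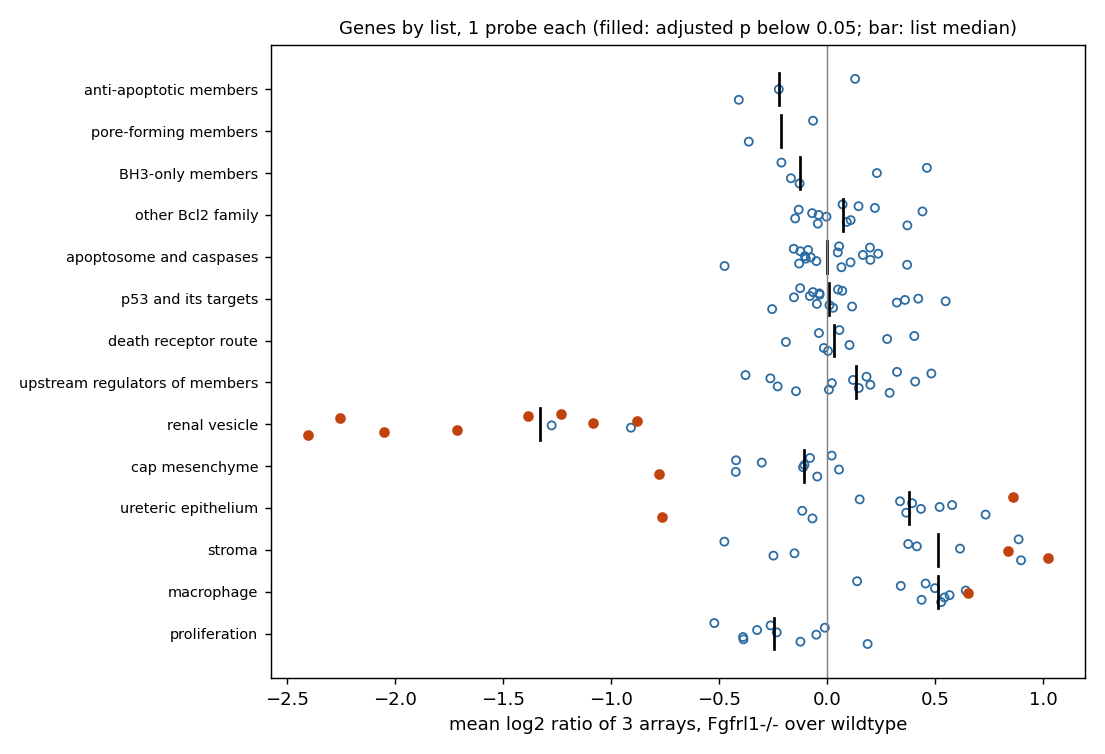
The mean log2 ratio of 3 arrays, Fgfrl1-/- over wildtype, is plotted on the x axis for genes of the lists in the rows (1 probe per gene). The lists of endothelium, erythroid cells, and neural crest and neurons are not plotted. Filled points passed an adjusted p below 0.05 (limma) and bars mark list medians. All member and pathway genes are open points between -0.48 and 0.55, while the renal vesicle list lies between -2.40 and -0.88. The genes of that list were already reported as lowered on these arrays.

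Marker genes of several cell types differed in level between genotypes, and in these bulk samples fewer cells of a type and less RNA per cell cannot be told apart. The counts below stand beside 0.687% of all probes called and 1.19% of those well above background in both genotypes on all arrays. The log2 ratio had the same sign on all arrays for 38.3% of all probes. Renal vesicle markers were lower in 10 of 10 genes (8 called by limma), with mean log2 levels of 7.92 to 8.24 in the Fgfrl1-/- pools and 9.54 to 9.63 in the wildtype pools. Cap mesenchyme markers had list levels of 10.10 to 10.18 against 10.24 to 10.497 without overlap, with 8 of 10 lower, 1 of them called. Macrophage markers were higher on all arrays in 10 of 10 genes (1 called), with list levels of 8.44 to 8.72 against 8.05 to 8.11, and none of them was at background in every pool. Stroma markers had list levels of 12.61 to 12.96 against 12.34 to 12.36, with 7 of 10 higher (2 called) and 3 lower (0 called). Ureteric epithelium markers had list levels of 10.47 to 10.82 against 10.24 to 10.46, with 9 of 12 higher (1 called) and 3 lower (1 called). Among the genes called higher were Col1a1 in the stroma list and Tfcp2l1 in the ureteric list. For both, the paper reported that quantitative PCR at E12.5 did not show the higher level. Proliferation markers had list levels of 12.30 to 12.63 against 12.68 to 12.70, with 9 of 10 lower (0 called by limma). At an unadjusted p below 0.05 there were 4 of these 10, beside 15.9% of all probes and 26.1% of those well above background. In the other marker lists the levels of the genotypes overlapped and 0 genes were called. Endothelium markers had 5 of 9 lower and 4 higher. Erythroid markers had 6 of 8 lower and 2 higher, and so did markers of neural crest and neurons. The part of cell types in the values of Bcl2, Bax, Bbc3 and the other members was not tested.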

How the data were processed

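RNA of 3 pairs of pools was compared on 3 two-colour Agilent arrays, each pair on its own array. The authors scanned the arrays and extracted spot intensity with Agilent Feature Extraction (version 10 per the labels; the file headers name 9.5.3.1 and 10.5.1.1). The deposited scanner files also hold log10 ratios, and the authors deposited a table of log2 ratios whose method of scaling is not given in the sources used here; by its correlation with the scanner values (0.70 to 0.72) it runs as Fgfrl1-/- over wildtype, and its column medians were -0.018, 0 and 0.0030. These were used as alternatives only. Median intensity was corrected with normexp (offset 50) and loess in limma 3.58.1 (R 4.3.3), control spots had weight 0, and outlier spots (107 to 138 an array) were left out. Spots of 1 probe were averaged, and log2 ratios were fitted with lmFit and eBayes, with Benjamini-Hochberg adjustment over 41174 probes. Levels of single channels were taken after Aquantile scaling and stay open to dye bias. Only the array 1 file names genes, so arrays 2 and 3 were named by probe. The number of arrays limits the precision. The p-values rest on the spread of the log2 ratio between arrays, in which differences between pools and between arrays cannot be told apart. On data simulated for this comparison (41174 probes), 83% of probes changed by 1 and 98% changed by 2 on the log2 scale were recovered. Changes of the size seen in members, at most 0.46, were not simulated.

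Members, gene lists and tests were chosen with earlier results of these data known. Named were all member probes, the 2 lowest and 2 highest pathway genes well above background (as fewer than 4 were called) and Fgfrl1. In all, 16 alternatives were run: background correction, normalisation, filters, probe summary, variance model, slide and leaving out each array.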

Additional observations from a re-analysis of the deposited data

How the results depend on the processing

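The member count of 0 held under 15 of 16 alternatives. Leaving out 1 array in turn gave 0 to 5 called member probes and 0 to 19 called pathway genes, the upper values without array 1, which also gave the highest counts over all probes. Over all probes, 164 were called lower, and leaving out 1 array gave 0 to 4172. There were 119 called higher, and leaving out 1 array gave 0 to 3494. The count of lower probes was 0 with a normexp offset of 0, with the scanner software's ratios and with 1 value per slide, 91 with median centring, 46 with dim probes left out and 32 with the authors' table. The count of higher probes was 0 with an offset of 0, with the scanner's ratios and with 1 value per slide, 72 with no background subtraction, 2 with median centring, 14 with dim probes left out and 4 with the authors' table. The death-promoting minus protective median moved from -0.054 to 0.157 with median centring, and it was also above 0, by less than the spread between arrays, with the scanner's ratios (0.011), 1 probe per gene (0.070) and without array 1 (0.018). Among named genes, the values that reversed were Bcl2l1 to 0.0033 and Bcl2l11 to -0.021 with the mean of probes, and Mcl1 to -0.27 and Bcl2l11 to -0.096 with median centring. The cause of these shifts was not tested. Bcl2 (-0.76 to -0.24), Bax (-0.65 to -0.34) and Bbc3 (0.13 to 0.57) kept their direction under all 16. With 3 arrays and ratios that pair the pools on each array, the pairing of pools is already in the fit.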
